A study of Mus musculus with 74 samples.

Results

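The C313Y allele of Aire was read in mature medullary thymic epithelial cells with no normal Aire copy beside it and with one, and the difference between both effects was tested gene by gene. The comparison used 15 of the 74 libraries of the series, chosen by genotype and title. The 3 Aire -/C313Y libraries carry 1 null allele and 1 C313Y allele, so that no normal copy is left, and are set against 3 wild-type (Aire +/+) libraries titled in the same form. The 4 Aire +/C313Y libraries keep 1 normal allele and are set against 5 wild-type libraries titled in a second form, of which 45 and 47 carry C313T in place of C313Y in their titles. All were from NOD mice aged 4 to 7 weeks. The fit also held 3 Aire-/- and 3 Aire+/- NOD libraries, which enter neither effect but share in the estimate of the spread. Gene sets for description came from Aire-/- against wild-type libraries of B6 mice, in a separate fit that also held Aire+/-. The mice of these further libraries were of the same ages. The cells were sorted mTEChi, the mature subset of the medullary epithelium, and their RNA was made into bulk MARS-seq libraries, which count tags from the 3' end of transcripts. The labels do not give the part of Aire that the null allele lacks, nor whether each library came from a separate mouse, so that p-values measure the spread between these libraries, which may be technical. The effects share no library. The title form changes together with the presence of a normal copy, so a difference between the effects that comes with the form and one that comes with the allele cannot be told apart.

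AIRE is a transcriptional regulator through which medullary epithelial cells express genes that are otherwise restricted to peripheral tissues, and T cells that recognise the products are removed or diverted. The protein works as a multimer, and cysteine 313 lies in its first PHD finger, a zinc-binding fold held by cysteines and a histidine that reads histone tails. Loss of AIRE lowers the tissue-restricted genes, and dominant changes in this finger can interfere with the product of a normal allele. The site of the change is shown because both mutant groups carry it. It is the reference sequence in GENCODE vM21 (transcript Aire-204, exon 8 of 14, codon 313 of a protein of 552 residues), on the minus strand of chr10:78037890-78037982 in GRCm38, printed 5′ to 3′ with the codon of cysteine 313 in capitals.
Aire, codon 313: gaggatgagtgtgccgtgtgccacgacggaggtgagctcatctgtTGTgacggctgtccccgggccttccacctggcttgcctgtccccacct
The window encodes 6 cysteines, the changed one included, all within 1 exon.

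The first 100 bases before the annotated start are shown for 4 genes on which the results turn. Il21r and Cnnm2 were higher and Dpysl5 lower in -/C313Y with little or opposite change in +/C313Y, whereas Gpx3 fell alike in both. They are from RefSeq (GRCm38.p6, plus strand) at chr7:125603329-125603428, chr19:46761509-46761608, chr5:30711464-30711563 and chr11:54902754-54902853, and CG dinucleotides, the sites of DNA methylation, are in capitals.
Il21r: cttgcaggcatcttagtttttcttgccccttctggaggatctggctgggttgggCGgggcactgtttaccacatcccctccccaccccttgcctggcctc
Cnnm2: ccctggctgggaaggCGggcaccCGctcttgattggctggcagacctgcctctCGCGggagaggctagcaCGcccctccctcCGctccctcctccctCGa
Dpysl5: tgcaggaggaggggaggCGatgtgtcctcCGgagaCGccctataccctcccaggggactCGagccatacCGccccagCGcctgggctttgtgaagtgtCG
Gpx3: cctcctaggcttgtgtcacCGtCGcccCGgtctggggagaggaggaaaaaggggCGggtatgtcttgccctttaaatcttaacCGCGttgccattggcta
The Il21r window holds 1 CG and those of Cnnm2, Dpysl5 and Gpx3 hold 7, 7 and 6. None of the 4 windows holds TATAAA on either strand. Over the 250 bases before the start, TATAAA on either strand was in 825 of 10466 tested genes with a promoter in the table (7.88%), in 2 of 24 genes called higher for the difference and in 2 of 18 called lower. The median number of CG in those 250 bases was 15 over all tested genes, 10.5 in the genes called higher and 4 in those called lower.

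The 21 libraries of the shared NOD table, which also holds 3 Aire-/- and 3 Aire+/- libraries, had between 1536436 and 3692601 counts, and 13827 of its 16591 genes passed the filter on low counts. Wild types 78 and 80 stood apart from the other 3 of their form on the first principal component (at -24 and -20 against -45 to -43), so counts are also given without them. Several libraries held counts of both Xist and Y-linked genes. Among these counts the Y-linked share was 0.54 in wild type 52 and 0.32 in Aire+/- 392. It was 0.11 in -/C313Y 1, 0.12 in wild type 2 of its form and 0.054 in -/C313Y 3. All other libraries had 0.037 or less, or 0.98 or more. In +/C313Y it was 0 in 50, 73 and 75 and 0.99 in 53. The defining markers of thymic epithelium were all measured. Their summed level was 29929 to 33763 CPM in -/C313Y, 20486 to 21729 in its wild types, 19401 to 21378 in +/C313Y and 15058 to 22895 in its wild types. H2-Aa held the largest part of this sum, at 18598 to 24079, 10757 to 11046, 9067 to 12147 and 7212 to 12280 CPM. Krt5 and Krt14 went the other way in -/C313Y, at 1132 to 1801 against 2290 to 2923 and at 1047 to 1455 against 1477 to 1907. Of these 10 markers, 3 were called higher and none lower in -/C313Y, and 2 higher and none lower in +/C313Y. Markers of other cells were also present. The 15 tested markers of macrophages and dendritic cells summed to 1801 to 1914, 1188 to 1415, 1048 to 1471 and 1140 to 1606 CPM in the same order, and the 4 tested B cell markers to 775 to 941, 421 to 481, 768 to 952 and 459 to 614. Of these 15, 4 were called higher and 4 lower in -/C313Y, and 2 higher and 3 lower in +/C313Y. Of the 4 B cell markers, 2 were called higher and 1 lower in -/C313Y, and 1 higher and none lower in +/C313Y. Over all tested genes, 9.83% were called higher and 12.9% lower in -/C313Y, and 6.36% and 11.0% in +/C313Y. Blnk made up most of the B cell sum, at 675 to 806, 334 to 378, 666 to 849 and 396 to 521 CPM. Ms4a1 went the other way in -/C313Y, at 0.32 to 0.62 against 1.45 to 4.96 CPM. Thymocyte markers (12 tested) summed to 305 to 338, 325 to 367, 229 to 344 and 299 to 430.

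Aire itself was read first. Its level, in CPM (counts scaled to the size of each library), was 4285, 4115 and 4900.1 in -/C313Y and 2429, 2764 and 3172 in the wild types of that form. It was 3921, 4785, 3304 and 3024 in +/C313Y and 2531, 2998, 2768, 1979 and 1926 in wild types 45, 47, 52, 78 and 80. Every mutant library was above every wild type of its form. The log2 fold change (± SE) was 0.67 ± 0.18 in -/C313Y and 0.62 ± 0.14 in +/C313Y, both called by edgeR's quasi-likelihood test (adjusted p = 0.00599 and 0.00224). The difference between the effects was 0.05 ± 0.23 (95% interval -0.42 to 0.51) and was shown to lie within 2-fold (adjusted p = 0.00173). A 3' tag counts the transcript of either allele and is no check of the genotype.

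Genes called in both C313Y comparisons nearly all moved the same way, and others were called in 1 of them. Genes lowered at least 2-fold in Aire-/- cells of B6 mice, another strain, had a median log2 fold change of -2.03 in -/C313Y and -1.67 in +/C313Y. Those raised there had medians of 0.92 and 0.47. By edgeR's quasi-likelihood test at an adjusted p under 0.05, -/C313Y had 1359 genes higher (9.83% of those tested) and 1779 lower (12.9%). +/C313Y had 880 higher (6.36%) and 1522 lower (11.0%). Both comparisons called 1711 genes, and 1705 of these went the same way. In -/C313Y but not in +/C313Y 827 were called higher and 600 lower, and in +/C313Y but not in -/C313Y 348 higher and 343 lower. The log2 fold changes of both effects had a Pearson correlation of 0.82 and a Spearman correlation of 0.62 across the 13827 genes, given as a description, since genes are not independent replicates.

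Among the 529 genes higher in both, 82.4% had the larger effect in -/C313Y, with a median log2 fold change of 1.07 against 0.77. Among the 1176 genes lower in both, 68.4% fell further in -/C313Y, with a median of -2.93 against -2.45. These shares cover genes chosen by their calls in the same comparisons and carry no test.

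Tested directly, the difference of the effects passed for 59 genes (0.427% of those tested). It was higher in -/C313Y for 32 (0.231%) and lower for 27 (0.195%), and 1605 genes had an unadjusted p under 0.05. For 6594 genes (47.7%) a difference of 2-fold or more in either direction was refused by a test of equivalence (adjusted p under 0.05), and no gene passed both tests. The remaining 7174 genes (51.9%) were shown neither to differ nor to be alike, and they were the less expressed ones: their median level in the highest of the 4 groups was 10.7 CPM, against 54.7 CPM in the genes within 2-fold. The count of 59 moves with single libraries. It was 21 without -/C313Y 1, 24 without wild type 1 and 30 without wild type 2 of that form, 38 without -/C313Y 2, and 143 without +/C313Y 50. It was 198 without both wild types titled C313T, 174 without wild types 78 and 80, 22 with only the 4 groups in the fit and 191 with DESeq2. The call was lost for 43 of the 59 genes in at least 1 of the 15 settings that leave out 1 library. Under every setting 12 of the 59 genes passed: Il21r, Cnnm2, Pgm2, Fam107b, Cdca7l, H19 and Sez6 on the higher side, and Dpysl5, Cidea, S100a9, Ctxn3 and 2900079G21Rik on the lower side. Direction held under every setting for 57 of the 59, the exceptions being Tmsb10 and Il11ra1. Of the 59, 57 are named here, and those outside the 12 largest differences each way that the naming rule takes were picked for description after their values were seen.

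**Figure D1:**
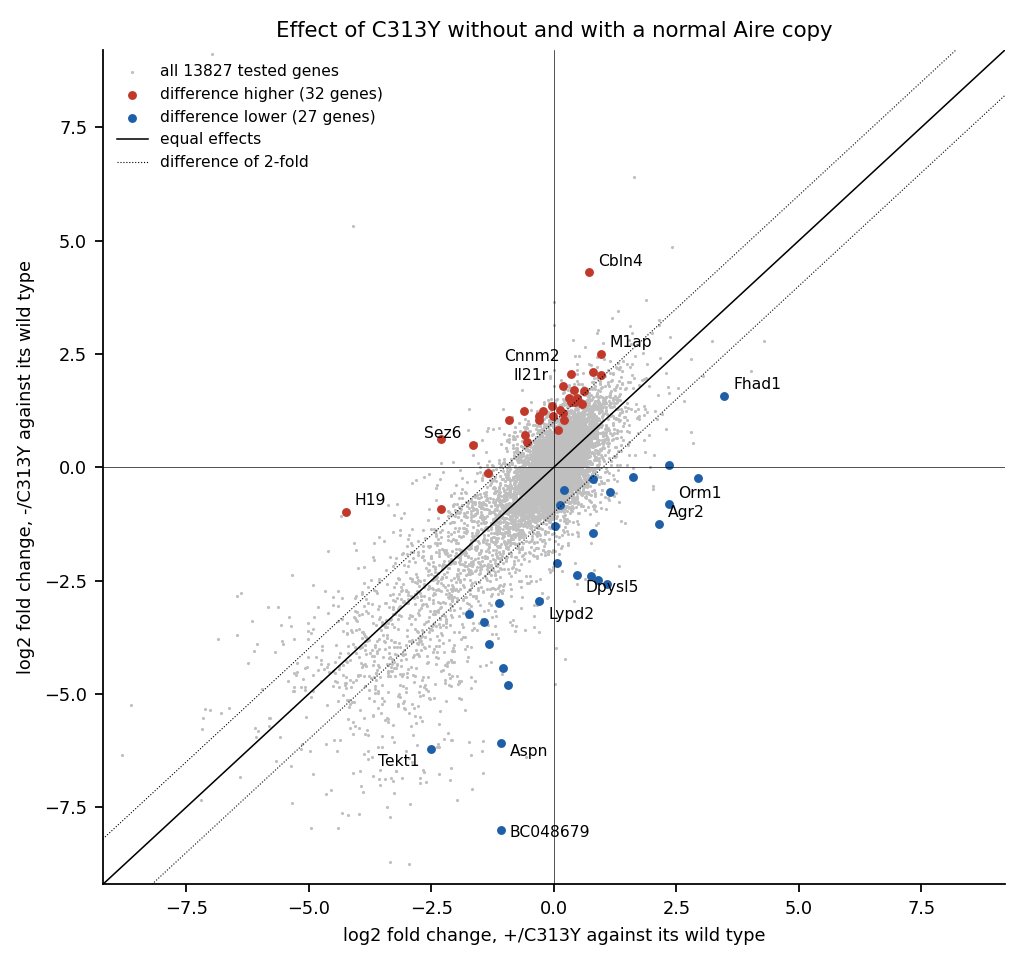
Log2 fold change of every tested gene in +/C313Y (horizontal axis) and in -/C313Y (vertical axis), each against the wild types of its own title form; red and blue points are the 32 and 27 genes called higher and lower for the difference, the solid line marks equal effects and dotted lines a 2-fold difference. Most genes lie along the line, red points lie above it and blue points below it.

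The genes that rose in -/C313Y with no called change in +/C313Y, 16 of the 32, included Il21r, Cnnm2, Irf8 and Dnmt3l. Il21r, the receptor for interleukin-21, was at 147, 132 and 138 CPM in -/C313Y against 39.6, 39.7 and 41.6 in its wild types. In +/C313Y it was at 62, 68, 46 and 50.8, against 46, 48.2, 66.5, 51.5 and 36 in wild types 45, 47, 52, 78 and 80. The 3 -/C313Y libraries lay above all other 12, while +/C313Y overlapped its wild types. The log2 fold change was 1.78 ± 0.17 and 0.18 ± 0.15, and the difference 1.60 ± 0.23 (edgeR, adjusted p = 0.000667). Cnnm2, a membrane protein of magnesium handling, showed the same order, with 68.8, 63.1 and 83.7 CPM in -/C313Y and 18.9, 20.5 and 13.6 in its wild types. It was at 22.8, 20.6, 15.6 and 17.5 CPM in +/C313Y and 21.7, 14.5, 14.9, 11.4 and 13.1 in its wild types. Again only -/C313Y stood clear of the other libraries, and the difference in log2 fold change was 1.70 ± 0.28 (edgeR, adjusted p = 0.00373).

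Irf8, a transcription factor of dendritic cells and macrophages, rose to 513, 509 and 428.2 CPM in -/C313Y from 205, 211 and 217. It was at 299.8, 397, 335 and 352 CPM in +/C313Y and 256, 263, 339, 369 and 285 in its wild types, which lay wholly above those of the -/C313Y form. The difference in log2 fold change was 1.003 ± 0.19 (edgeR, adjusted p = 0.0101), and it did not pass with all 8 wild types pooled as 1 control (adjusted p = 0.0755). Irf8 is itself 1 of the 15 tested myeloid markers, of which 4 were called higher and 4 lower in -/C313Y (9.83% and 12.9% of all tested genes). Their summed level, which contains Irf8, was higher in every -/C313Y library than in the wild types of its form, and its part in the Irf8 value was not tested. Lyz2, Batf3 and Fcer1g were higher there, Lyz2 at 902 to 1033 CPM against 620 to 661. Csf1r and Tyrobp were lower, at 12.2 to 17.2 CPM against 22.9 to 33.8 and at 38.1 to 38.6 against 56.4 to 86.4. In bulk libraries a change in the number of cells of a type and a change in RNA per cell cannot be told apart.

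Dnmt3l, a cofactor of the DNA methyltransferases in germ cells, was at 137, 144 and 139 CPM in -/C313Y and 43.1, 47.1 and 71.7 in its wild types. It was at 44.4, 60.4, 28.4 and 38.9 CPM in +/C313Y and 53.2, 44.3, 55, 32.4 and 34.2 in its wild types. Every -/C313Y library exceeded all other libraries, and +/C313Y lay across its wild types. The difference was 1.39 ± 0.29 (edgeR, adjusted p = 0.0229), a call lost without -/C313Y 1, wild type 1 or 2 of its form or +/C313Y 75 (adjusted p up to 0.0911). Dnmt3l starts inside Aire on the opposite strand: Aire spans chr10:78030022-78043610 on the minus strand and Dnmt3l chr10:78041947-78063622 on the plus strand, with 1664 bases shared. The shared stretch lies at the start of both genes, whereas the libraries count tags from the 3' end. Whether counting used the strand is not stated, so any reads of the shared stretch cannot be assigned to one of them with certainty.

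The rest of these 16 genes included Tmprss2, a membrane serine protease, the semaphorin receptor Nrp2, the neuronal activity gene Arc, the synaptic organiser Cbln4, Ptk2b, a tyrosine kinase, the T-bet gene Tbx21, the sodium channel subunit Scnn1a, the amine oxidase Aoc1, Gabarap of autophagy, Ufsp1 and Mn1. Cbln4 had the largest fitted value, from 1.55, 0 and 0 CPM in wild types to 13, 11.9 and 13 in -/C313Y, against 4.56, 4.48, 4.83, 3.39 and 0 and 6.24, 4.97, 8.4 and 4.76 in wild types and +/C313Y of the other form. Its difference was 3.58 ± 0.91 (edgeR, adjusted p = 0.0292), and it rests on 5 counts in the wild types of the -/C313Y form. With 1 library left out the value ran from 2.88 to 7.41 and did not pass in 5 of 15 settings (adjusted p up to 0.0783), nor with only the 4 groups in the fit (adjusted p = 0.107), nor with pooled wild types, where it was 1.05 (adjusted p = 0.19). Tmprss2 was at 30.5, 26.2 and 36.3 CPM in -/C313Y against 10.2, 18 and 12.4, and at 12.1, 8.02, 6.8 and 5.95 in +/C313Y against 15.2, 13.4, 15.6, 11.1 and 6.28. Its difference of 1.84 ± 0.36 (edgeR, adjusted p = 0.0149) did not pass without wild type 1 of the -/C313Y form (adjusted p = 0.0595). Ptk2b, Tbx21 and Scnn1a had differences of 1.30 ± 0.24, 1.07 ± 0.24 and 1.15 ± 0.23 on the log2 scale.

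Of the 32 genes, 8 rose in both mutants and more in -/C313Y. Pgm2, a phosphoglucomutase, was at 488, 513 and 449.9 CPM in -/C313Y and 123, 121 and 111 in its wild types. It was at 287, 225, 249.2 and 248 CPM in +/C313Y and 117, 118, 139, 141 and 129.6 in its wild types. Both mutants stood clear of their wild types, and -/C313Y stood clear of +/C313Y. The log2 fold changes were 2.04 ± 0.14 and 0.97 ± 0.11, and the difference was 1.07 ± 0.18 (edgeR, adjusted p = 0.00417). Cdca7l, a nuclear protein that binds MYC, went from 34.1, 34.7 and 22.6 to 134, 129 and 124 CPM in the -/C313Y form and from 33.8, 35, 36, 41 and 34.8 to 74.9, 70.7, 57.2 and 49.2 in the other. Its difference was 1.30 ± 0.23 (edgeR, adjusted p = 0.00478).

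Fam107b and Gas7, a gene of the growth-arrest-specific group with a role in neurite outgrowth, followed with differences of 1.08 ± 0.18 and 1.05 ± 0.20. Fam107b was at 220.4, 219.9 and 199 CPM in -/C313Y and 147, 162, 118 and 134 in +/C313Y, and the wild types of the forms, at 72.5, 62.6 and 63.3 and 101, 95.7, 89.1, 82.3 and 90.8, did not overlap. Gas7 was at 167, 165 and 190.0 CPM in -/C313Y against 60.1, 64.4 and 57.8, and at 80.7, 82.1, 55.2 and 74.6 in +/C313Y against 56.6, 58.5, 55, 52.4 and 39.96. The others were M1ap, a gene of meiosis, Gga3 of Golgi transport, the connexin Gjb2 and Ank, a pyrophosphate transport protein. M1ap had the largest effect of the 8 in -/C313Y, 2.51 ± 0.23, with 0.96 ± 0.20 in +/C313Y, and its difference of 1.54 ± 0.31 (edgeR, adjusted p = 0.0184) did not pass without -/C313Y 1 or wild type 1 or 2 of its form (adjusted p up to 0.0698).

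A smaller set was higher for the difference through a fall in +/C313Y. H19, an imprinted non-coding RNA, was at 2.57, 0.764, 0.40 and 1.19 CPM in +/C313Y and 36.1, 24, 20.4, 24.7 and 16.6 in its wild types. It was at 9.41, 13.4 and 14.6 CPM in -/C313Y and 26.3, 20.5 and 26 in its wild types. It thus fell in both mutants, and the +/C313Y libraries lay below the -/C313Y ones. The log2 fold change was -4.24 ± 0.52 in +/C313Y and -0.98 ± 0.33 in -/C313Y, and the difference 3.26 ± 0.61 (edgeR, adjusted p = 0.00417). In NOD Aire-/- against Aire+/- it was -4.59 ± 0.80. Sez6, a neuronal membrane protein, was at 4.77, 3.06, 6.0 and 4.36 CPM in +/C313Y against 20.1, 9.22, 17.1, 12.6 and 13.1, and at 16.6, 14.4 and 16.6 in -/C313Y against 7.74, 10.5 and 15. All 4 +/C313Y libraries were below the other 11, and the difference was 2.14 ± 0.39 (edgeR, adjusted p = 0.00721).

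Klk1b11, a tissue kallikrein whose family has near-identical copies that counting could split, had log2 fold changes of -0.91 ± 0.22 in -/C313Y and -2.30 ± 0.24 in +/C313Y, lower in both and less so in -/C313Y. Gnmt, a methyltransferase of liver, and Il4, the interleukin-4 gene, were called lower in +/C313Y only, with log2 fold changes of -1.35 ± 0.16 and -2.29 ± 0.52 there and of -0.13 ± 0.18 and 0.63 ± 0.46 in -/C313Y. Their differences were 1.22 ± 0.24 and 2.92 ± 0.69 (edgeR, adjusted p = 0.017 and 0.0369). With 1 library left out Gnmt did not pass in 2 of 15 settings (adjusted p up to 0.0712) and Il4 in 9 (up to 0.13), nor did Il4 with the replicate block, with only the 4 groups in the fit or without the wild types titled C313T.

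The effects were called in opposite directions for 5 genes that passed for the difference. The gut gene Lypd8, the homeobox gene Hoxd4 and the endocrine granule gene Chga were higher in -/C313Y and lower in +/C313Y. Ctxn3, a cortexin of neurons and kidney, and Fmo1, a flavin monooxygenase, were lower in -/C313Y and higher in +/C313Y. Ctxn3 was at 0.649, 1.25 and 0.395 CPM in -/C313Y against 4.34, 3.1 and 6.65, and at 11.7, 12.6, 8.4 and 5.95 in +/C313Y against 3.8, 5.8, 6.68, 3.08 and 2.85. The groups of each form did not overlap except that +/C313Y 75 lay within its wild types, and the difference was -3.66 ± 0.71 (edgeR, adjusted p = 0.00478). Chga went from 137, 156 and 166 to 193, 189.9 and 295 CPM in the -/C313Y form and from 146, 124, 183, 147 and 94.8 to 109.7, 104, 91.6 and 76.6 in the other. Its difference of 1.11 ± 0.25 (edgeR, adjusted p = 0.0405) did not pass in 7 of the 15 settings that leave out 1 library.

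**Figure D2:**
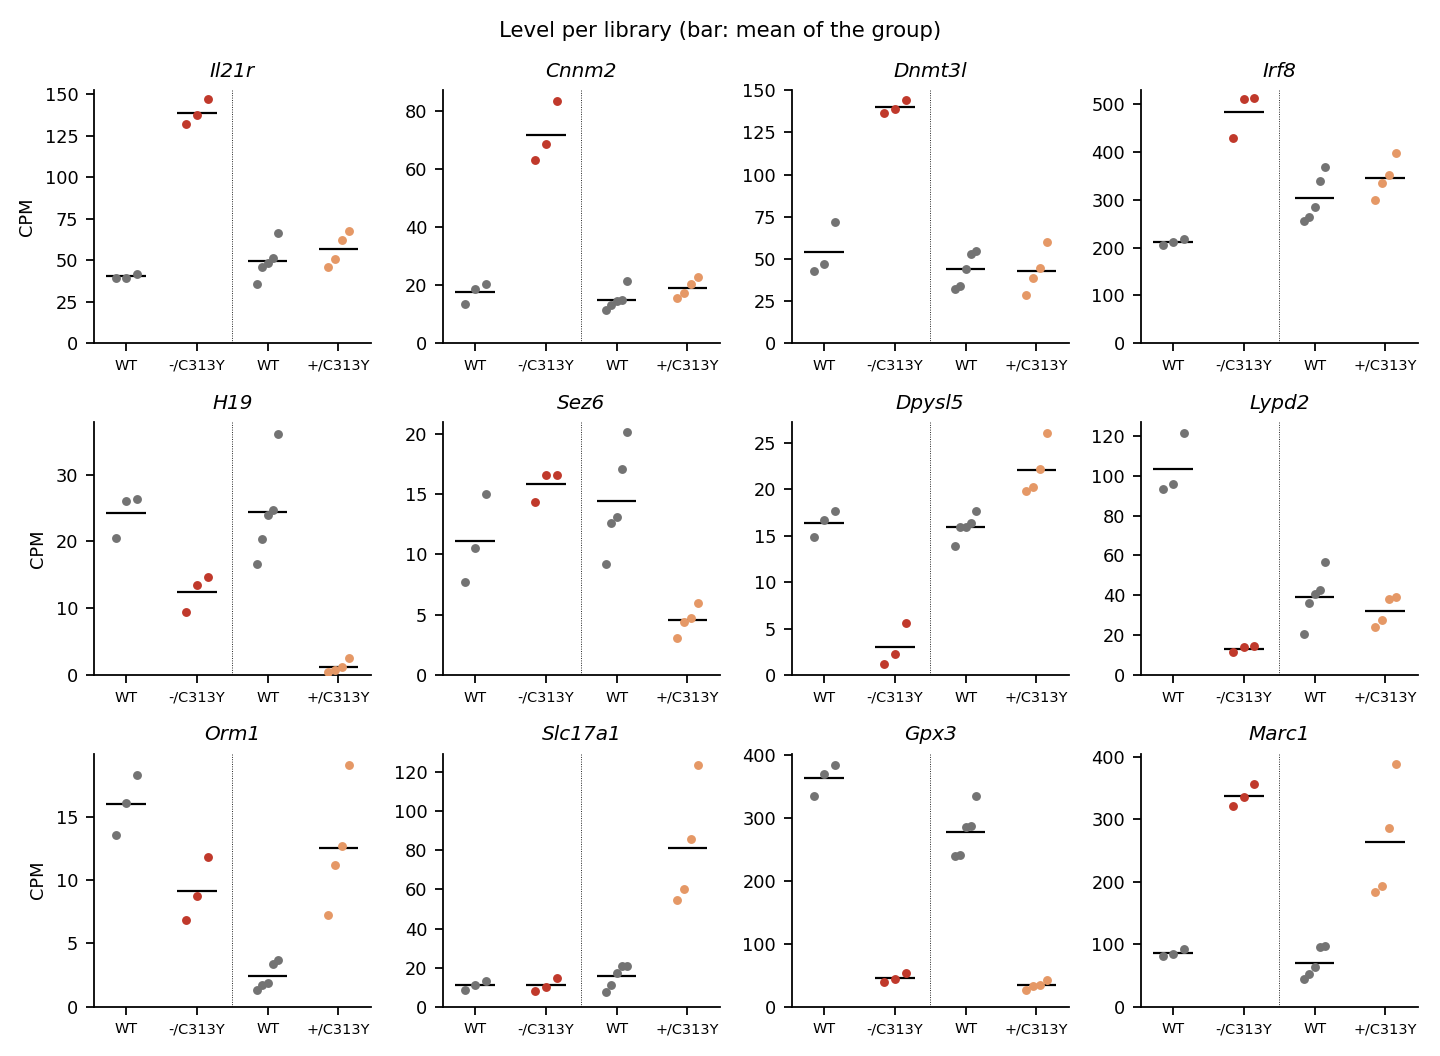
Level in CPM (vertical axis) of 12 genes in each library of the 4 groups; points are libraries, bars are group means, and the dotted line parts the title forms. Il21r, Cnnm2, Dnmt3l and Irf8 are high in -/C313Y alone, H19, Sez6 and Slc17a1 set +/C313Y apart, and Gpx3 and Marc1 differ from wild type alike in both mutants.

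Among the 27 genes lower for the difference, 10 fell in -/C313Y with no called change in +/C313Y. Dpysl5, a collapsin response protein of growing axons, was at 2.27, 5.62 and 1.18 CPM in -/C313Y and 14.9, 16.7 and 17.6 in its wild types. It was at 20.2, 22.2, 26 and 19.8 CPM in +/C313Y and 16, 16.3, 16, 13.9 and 17.7 in its wild types. The -/C313Y libraries lay below all others and the +/C313Y libraries above all others, although the latter was not called (log2 fold change 0.47 ± 0.21, edgeR, adjusted p = 0.131). The difference was -2.84 ± 0.40 (edgeR, adjusted p = 0.000667). Cidea, a lipid droplet protein of brown fat, was at 3.25, 3.12 and 3.55 CPM in -/C313Y against 15.8, 13.6 and 13.3, and at 13.6, 18.3, 12.8 and 13.1 in +/C313Y against 10.6, 10.01, 14.5, 14.8 and 20.5. Only -/C313Y was set apart, with a difference of -2.17 ± 0.38 (edgeR, adjusted p = 0.00417).

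Lypd2, of the Ly6 protein family, was at 11.4, 14.4 and 14.2 CPM in -/C313Y and 96, 121 and 93.1 in its wild types, and at 39.3, 24.1, 38.4 and 27.8 in +/C313Y and 56.6, 40.6, 42.7, 36.1 and 20.5 in its wild types. The wild types of the forms did not overlap. The difference of -2.65 ± 0.38 (edgeR, adjusted p = 0.000936) did not pass with all 8 wild types pooled (adjusted p = 0.12). Tmsb10, an actin-binding thymosin, was likewise at 803, 1148 and 706 CPM in wild types of the -/C313Y form but at 57.8, 90.7, 107, 104 and 84.5 in those of the other. It was at 321, 334 and 431.7 CPM in -/C313Y and 105, 72.6, 100.4 and 86.5 in +/C313Y, so that its difference of -1.32 ± 0.27 goes with wild types that do not overlap between the title forms, and its sign turned with pooled wild types. Over the 59 genes, the wild types of both forms did not overlap for 14 (23.7%), against 12.9% of all tested genes. The mutant groups did not overlap for 54 (91.5%), against 26.0% of all tested genes. For 44 of the 59 only the mutants were apart and for 4 only the wild types. Over all 13827 tested genes these counts were 2691 and 885, so that the 4 lie near the share over all genes. The 59 were chosen on these same libraries, so group ranges that stand apart are fixed in part by that choice and carry no test.

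The others of these 10 were the cilia regulator Gmnc, the pancreatic colipase gene Clps, the calcium-binding oncomodulin Ocm, BC048679, the histone H2afz and the cytokine Mif, the last of which have processed copies in the genome that counting could split. BC048679 had 0 counts over the 3 -/C313Y libraries and 94 in their wild types, at least 33.3-fold lower, taking 3 counts over the group as the floor. It was at 6.97, 1.53, 3.2 and 3.17 CPM in +/C313Y and 11, 7.12, 16.3, 1.85 and 3.42 in its wild types, which overlap. The call of BC048679 for the difference (edgeR, adjusted p = 0.0426) was lost in 9 of the 15 settings that leave out 1 library. It was also lost with the replicate block and with only the 4 groups in the fit. Clps was at 2.92, 0.312 and 0.79 CPM in -/C313Y against 46.8, 50.2 and 22.3, and at 15.8, 14.1, 3.2 and 1.98 in +/C313Y against 16.7, 19, 19.3, 21.6 and 6.85. Its difference of -3.86 ± 0.97 (edgeR, adjusted p = 0.0481) did not pass in 11 of the 15 settings that leave out 1 library. With pooled wild types it did not pass either (edgeR, adjusted p = 0.0706). For Clps the wild types of the forms did not overlap, whereas the mutants did. The same held for Mif, at 1094 to 1258 and 770 to 868 CPM in the wild types and 771 to 947 and 876 to 1017 in the mutants. The Mif difference of -0.71 (edgeR, adjusted p = 0.0422) did not pass with pooled wild types (adjusted p = 0.517), nor in 9 of those 15 settings.

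Another 7 fell in both mutants and further in -/C313Y. S100a9, a calprotectin subunit of neutrophils, was at 26.6, 26.5 and 18.2 CPM in -/C313Y and 288, 326 and 161 in its wild types. It was at 73, 61.9, 95.2 and 84.1 CPM in +/C313Y and 198, 303.1, 267, 142 and 146 in its wild types. Both mutants were below all wild types, and -/C313Y was below +/C313Y. The log2 fold changes were -3.42 ± 0.28 and -1.43 ± 0.21, and the difference was -1.99 ± 0.35 (edgeR, adjusted p = 0.00846).

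The remaining 6 included Aspn, an extracellular matrix protein, the adhesion receptor Adgrg5, the lens crystallin Cryba4, the gut hormone Cck and the cilium protein Tekt1. Aspn and Tekt1 had 1 count each over the 3 -/C313Y libraries, against 87 and 96 in the wild types. The ratio was 92.4-fold (95% interval 16.1 to 3690, counting error only) for Aspn and 102-fold (17.9 to 4068) for Tekt1. In +/C313Y Aspn was at 8.07, 4.97, 3.6 and 7.93 CPM against 15.2, 22.1, 8.54, 6.47 and 12, and Tekt1 at 2.94, 2.29, 1.6 and 2.38 against 15.2, 12.1, 12.6, 13.9 and 12.6. The difference of Aspn, -5.00 ± 1.68 (edgeR, adjusted p = 0.0101), did not pass without -/C313Y 1 or 2 (adjusted p up to 0.0682). That of Tekt1, -3.71 (edgeR, adjusted p = 0.0396), did not pass in 7 of the 15 settings that leave out 1 library. Nor did Tekt1 pass with the replicate block or with DESeq2 (adjusted p = 0.0671). Cck was at 14.6, 15.3 and 13.4 CPM in -/C313Y against 94.8, 178 and 141, and at 32.7, 28.7, 22 and 22.2 in +/C313Y against 119, 95.9, 104, 58.6 and 57.1. Its difference was -1.52 ± 0.34 (edgeR, adjusted p = 0.0365), a call lost in 6 of the 15 settings that leave out 1 library.

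The last pattern, 7 genes, rose in +/C313Y with no called change in -/C313Y. Slc17a1, a sodium phosphate transporter of kidney, was at 124, 85.6, 60.4 and 54.7 CPM in +/C313Y and 17.5, 20.8, 20.8, 7.7 and 11.4 in its wild types. It was at 14.9, 9.99 and 7.9 CPM in -/C313Y and 11.2, 13 and 8.67 in its wild types. Only the +/C313Y libraries stood out, with a difference of -2.31 ± 0.44 (edgeR, adjusted p = 0.0149) that did not pass without wild type 1 of the -/C313Y form (adjusted p = 0.0595). The transcript 2900079G21Rik was at 65.7, 53.5, 45.6 and 30.5 CPM in +/C313Y and between 3.10 and 8.56 in the other 11 libraries. Its difference was -3.19 ± 0.49 (edgeR, adjusted p = 0.00156). Agr2, a disulfide isomerase of mucus-secreting cells, was at 107, 59.98, 38.8 and 78.2 CPM in +/C313Y against 21.7, 13.7, 20.4, 6.78 and 19.4, and at 6.49, 0.937 and 3.16 in -/C313Y against 7.74, 13.6 and 5.78. Its difference was -3.39 (edgeR, adjusted p = 0.0447), a call lost in 9 of the 15 settings that leave out 1 library and in 4 others.

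Orm1, an acute-phase plasma protein of liver with close paralogues, was at 19.1, 7.26, 11.2 and 12.7 CPM in +/C313Y and 1.9, 1.32, 3.71, 3.39 and 1.71 in its wild types, but already at 18.3, 16.1 and 13.6 in the wild types of the -/C313Y form. It was at 6.82, 8.75 and 11.8 CPM in -/C313Y. The mutants overlapped and the wild types did not, and the difference of -3.17 ± 0.46 (edgeR, adjusted p = 0.000667) did not pass with pooled wild types (adjusted p = 0.683). Il11ra1, an interleukin-11 receptor gene with near-identical copies, likewise had overlapping mutants and wild types that did not overlap. Nr1d2, a nuclear receptor of the circadian clock, and Wfdc21 completed the pattern. Fhad1 rose in both and more in +/C313Y, from 7.6, 10.8, 6.68, 6.78 and 4.57 to 118, 91.7, 72.4 and 57.5 CPM there and from 15.8, 6.82 and 15.3 to 44.8, 38.4 and 36.3 in the -/C313Y form.

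The Aire null libraries, which enter neither effect, give another reading of these genes. In NOD Aire-/- against Aire+/- (4.21% of tested genes higher and 9.11% lower) 19 of the 32 genes were called higher and 2 lower, with a median log2 fold change of 0.79. Of the 27 genes, 17 were called lower and none higher, with a median of -1.82 and 10 not called. In B6 Aire-/- against wild type, in a table of its own (17.7% higher and 18.9% lower), 23 of the 32 were higher and 3 lower. Of the 25 lower genes in that table, 20 were lower and 1 higher. The median log2 fold change of the 32 was 1.26 in -/C313Y and 0.16 in +/C313Y, and that of the 27 was -2.37 and 0.21, values fixed in part by the choice of the genes. Il21r had 1.27 ± 0.17 in NOD Aire-/- against Aire+/-, between the effects of -/C313Y and +/C313Y, which are against wild types. Its mean level was highest in Aire-/-, at 188 CPM, with 77.9 in Aire+/-. It was 139 CPM in -/C313Y and 56.7 in +/C313Y, with 40.3 and 49.6 in their wild types.

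**Figure D3:**
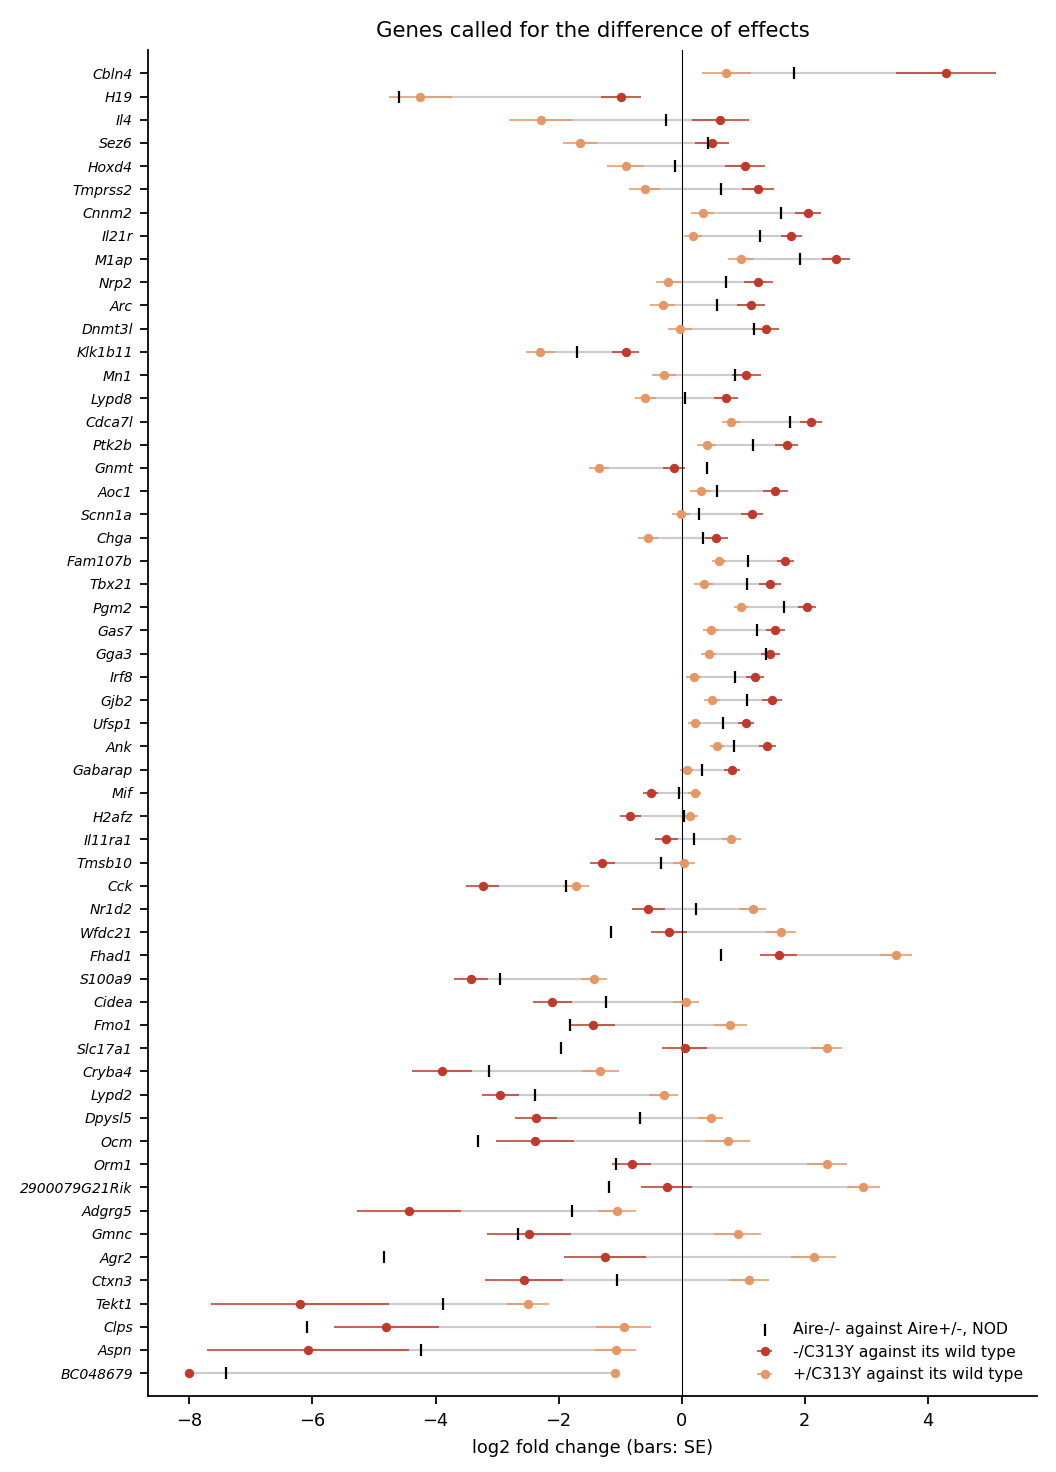
Log2 fold change (horizontal axis, bars are SE) of 57 of the 59 genes called for the difference, in -/C313Y (red) and +/C313Y (orange) against the wild types of their own forms, with NOD Aire-/- against Aire+/- as a black tick; genes are ordered by the difference, and no SE could be given for BC048679. Orange points of most genes lie nearer 0 than red ones, while H19, Sez6, Slc17a1 and Orm1 are among those moved further in +/C313Y.

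At the other end stand genes whose change was alike in both settings. Of 1119 genes called in both comparisons in the same direction by at least 2-fold each, 57 passed the test of a difference within 2-fold, 31 of them higher and 26 lower. Gpx3, a secreted glutathione peroxidase, was at 39, 44.4 and 54.1 CPM in -/C313Y and 370.5, 384 and 335 in its wild types. It was at 26.4, 32.9, 42.4 and 35.3 CPM in +/C313Y and 286, 239, 335, 287 and 240.3 in its wild types. Both mutants lay far below all wild types and their ranges overlapped. The log2 fold changes were -2.99 ± 0.19 and -3.02 ± 0.17, and the difference 0.03 ± 0.25 (equivalence, adjusted p = 0.00297 from the edgeR fit).

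Others that fell alike included Cga, the shared subunit of the pituitary hormones, Calca, the calcitonin gene, Thrsp of fat synthesis, the brain gene Olfm1, the creatine kinase Ckb, the calcium channel subunit Cacna2d2, Wnt6 and the interferon-induced Mx2. The log2 fold changes in -/C313Y and +/C313Y were -2.09 and -2.05 for Cga and -1.94 and -1.92 for Mx2. Their differences were -0.04 ± 0.44 and -0.01 ± 0.33. Mx2 was at 10.7, 11.2 and 10.7 CPM in -/C313Y against 45.2, 43.4 and 37, and at 7.71, 8.4, 8.4 and 11.5 in +/C313Y against 31.9, 30.3, 25.6, 40.7 and 43.4. No mutant library reached a wild type.

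Genes that rose alike included Krt79, a keratin of the epidermis, the lipase Liph, the oocyte genes Zar1 and H1foo, the myosin Myo3b, Marc1, a mitochondrial reductase, Cnst, Crip3, Ankrd33b and the transcript BB123696. Marc1 was at 356, 336 and 322 CPM in -/C313Y against 92, 84.3 and 81.2, and at 388, 287, 194 and 184 in +/C313Y against 96.1, 97, 64.2, 52.4 and 44. Its effects were 1.98 ± 0.26 and 1.88 ± 0.21 on the log2 scale with a difference of 0.09 ± 0.33 (equivalence, adjusted p = 0.0176 from the edgeR fit). Krt79 was at 359.7, 354 and 379.6 CPM against 97.3, 134 and 88.5 and at 294, 245, 190.0 and 143 against 72.6, 56.4, 50.5, 61.6 and 38.8, and its difference was -0.16 ± 0.32. Crip3 had the widest gap of the 10, with effects of 1.77 ± 0.14 and 1.27 ± 0.12. Both mutants were above all wild types of their form for each of these 3 genes. Of the genes named as alike, Gpx3, Mx2, Olfm1, Marc1 and H1foo passed for likeness in all 23 other settings tried at the 2-fold margin. Cga did not pass in 17 of the 23 (adjusted p up to 0.191), Cacna2d2 in 13, and Calca, Zar1 and Ankrd33b in 11 each. The rest did not pass in 1 to 8.

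The 6 largest called falls in each comparison were of genes at or near 0 counts in a mutant group, and of these BC048679 alone was called for the difference. Without a normal copy, the lens gene Cryba1, the retinal carrier Rlbp1, the salivary gene Smr3a, the cytokine Il31 and the epidermal gene Lce1d had 0 counts in -/C313Y. They were at least 27.96-fold, 26.9-fold, 31.1-fold, 28.7-fold and 60.5-fold lower than in wild types by the same floor. In +/C313Y these 5 genes were low but had counts, for example Cryba1 at 1.47, 1.53, 0.40 and 0 CPM against 7.98, 13.7, 11.5, 7.7 and 3.42. With a normal copy, the neuropeptide gene Kiss1, the germ-cell gene Hmgb4, Accsl, Ceacam9 and the epidermal gene Lce1j had 0 counts in +/C313Y, and they had 0 to 4 counts over the 3 -/C313Y libraries.

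Of genes with the largest called rises, Hamp, the iron hormone hepcidin, was at 1696, 1494 and 1420.3 CPM in -/C313Y against 163, 193 and 129 and at 726, 330.1, 365 and 294 in +/C313Y against 189, 90.9, 110.3, 57.6 and 36. Ostn, a hormone of muscle and bone, rose by 3.12 ± 0.39 and 1.55 ± 0.31 on the log2 scale. Htra4, a serine protease, and the non-coding RNA Pantr1 went the other way in size, with 2.12 ± 0.40 and 4.03 ± 0.32 for Htra4 and 1.47 ± 0.33 and 2.65 ± 0.25 for Pantr1. The differences of Hamp, Ostn, Htra4 and Pantr1 were 1.12 ± 0.54, 1.57 ± 0.50, -1.91 ± 0.51 and -1.18 ± 0.41, and none passed (edgeR, adjusted p = 0.448, 0.167, 0.102 and 0.212).

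Each of the 8 tissue-restricted lists had a negative median in both mutants. Over all tested genes, 12.9% were called lower in -/C313Y and 11.0% in +/C313Y, and 9.83% and 6.36% higher. In the list of genes long used as Aire-induced antigens, 20 of 29 tested genes were lower and 4 higher in -/C313Y, and 23 were lower and 1 higher in +/C313Y. The median log2 fold change was -3.19 and -2.33, against -0.03 and 0.01 over all tested genes, and 1 gene, Chga, was called for the difference. Ins2, the insulin gene expressed in the thymus, was at 1.3, 0.312 and 0.79 CPM in -/C313Y against 26.6, 52.1 and 39.3 and at 0.367, 0, 0.80 and 0 in +/C313Y against 25.5, 21.9, 29.7, 10.8 and 4.0. It was near 0 in both mutants, and its difference of 0.29 ± 1.54 was too imprecise to show either a difference or likeness.

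The pancreas list had 19 of 23 genes lower in each mutant and 2 higher in -/C313Y, with medians of -4.04 without and -2.59 with a normal copy. Ppy, the pancreatic polypeptide gene, was at 2.6, 1.56 and 2.76 CPM in -/C313Y against 88.9, 167 and 123, and at 6.97, 6.11, 4.4 and 6.74 in +/C313Y against 156, 133, 99.5, 45.6 and 45.7. All mutant libraries were below all wild types, and the difference of -1.77 ± 0.76 did not pass (edgeR, adjusted p = 0.339). Chga was called higher and Clps lower for the difference. The eye list, 10 lower of 10 in -/C313Y and 8 lower of 10 in +/C313Y, had medians of -4.61 and -3.29. With 3 genes at 0 counts set to their bound the former was -4.43. Cryba4 was the one eye gene called for the difference (-2.57 ± 0.57, edgeR, adjusted p = 0.0255).

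The milk and salivary list had 12 of 15 lower and 1 higher in -/C313Y and 10 lower in +/C313Y, with medians of -3.798 and -2.55. Liver genes had 15 of 21 lower in each and 1 higher in -/C313Y, with medians of -2.32 and -2.08, and Apoa1, an apolipoprotein, had log2 fold changes of -2.60 ± 0.50 and -4.92 ± 0.77 with a difference of 2.32 ± 0.92 that did not pass (edgeR, adjusted p = 0.272). Muscle and heart genes had 12 of 23 lower and 1 higher in -/C313Y and 14 lower and 4 higher in +/C313Y, with medians of -2.29 and -1.98. Neural genes had 12 of 23 lower and 2 higher in each, with medians of -1.77 and -1.90. Avp, the vasopressin gene, was at 0.974, 1.56 and 2.76 CPM in -/C313Y against 90.1, 150.0 and 98, and at 21.7, 6.88, 2.0 and 19.4 in +/C313Y against 96.5, 62.2, 70.2, 34.2 and 32.5. Its difference of -3.75 ± 0.99 did not pass (edgeR, adjusted p = 0.0749).

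The gut list had the lower median in +/C313Y. In -/C313Y 14 of 29 were lower and 4 higher, with a median of -0.64, and in +/C313Y 20 were lower and none higher, with a median of -1.38. Lypd8 was called higher and Cck lower for the difference, and Gip, a gut hormone, had log2 fold changes of -5.13 and -4.21. Beside these medians stand medians of the difference of -0.50 for the antigen list, -1.05 for pancreas, -1.29 for eye, -1.04 for milk and salivary, -0.08 for liver, -0.22 for muscle and heart, -0.14 for neural and 0.17 for gut genes, against -0.01 over all tested genes. The lists share members and were chosen with earlier results known, and no test was made over a list. The difference of single genes passed for 0.427% of all tested genes, and in these lists for Chga, Clps, Lypd8, Cck and Cryba4.

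**Figure D4:**
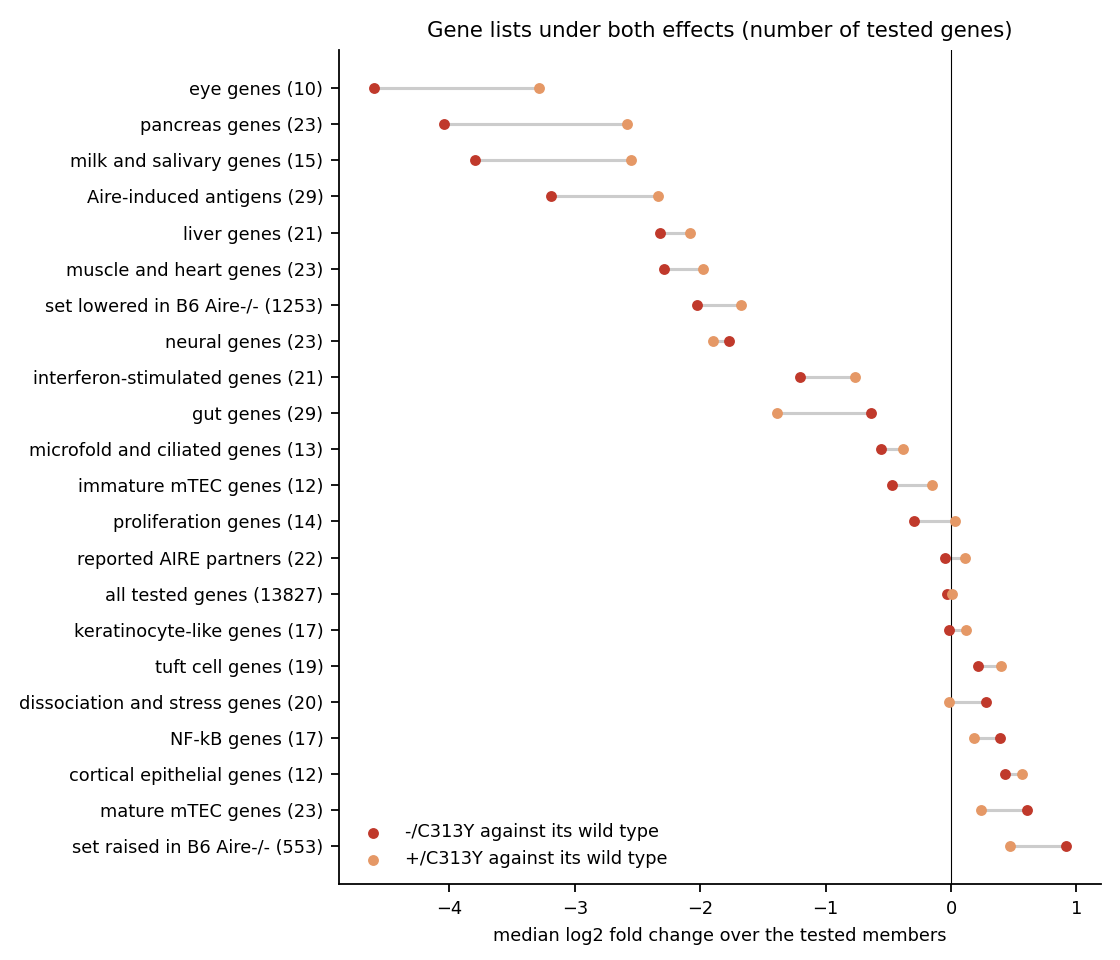
Median log2 fold change (horizontal axis) over the tested members of each gene list, in -/C313Y (red) and +/C313Y (orange) against the wild types of their own forms; the number of tested genes is in brackets. Tissue-restricted lists lie left of 0 in both, with the widest gaps for eye and pancreas genes, and the gut list has the lower median in +/C313Y.

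Of 23 mature mTEC genes, 14 were higher in -/C313Y and 5 in +/C313Y, none was lower, and none was called for the difference. Of all tested genes, 9.83% were higher in -/C313Y and 6.36% in +/C313Y. Cd80, a costimulatory ligand, was at 87.7, 94.6 and 75.8 CPM in -/C313Y against 31.6, 24.2 and 22.8, and at 48.8, 45.5, 32.8 and 29.4 in +/C313Y against 54.7, 23.2, 34.9, 27.4 and 18.8. The -/C313Y libraries lay above all others, yet the difference of 1.41 ± 0.41 did not pass (edgeR, adjusted p = 0.125). Ctsh, a cathepsin, rose by 1.32 ± 0.16 and 0.86 ± 0.13 and was alike within 2-fold (difference 0.46 ± 0.21). The median difference over the list was 0.42, and 14 of the 23 were shown to be within 2-fold, against 47.7% of all tested genes.

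NF-kB genes had 7 of 17 higher in -/C313Y and 4 in +/C313Y, where 9.83% and 6.36% of all tested genes were higher and 12.9% and 11.0% lower. Of the 17, 13 were within 2-fold, against 47.7% of all tested genes. Nfkbia, the pathway's inhibitor, rose by 0.91 ± 0.13 and 0.34 ± 0.11. Reported AIRE partners had 1 higher and 1 lower of 22 in each mutant, and 17 were within 2-fold. Sirt1, a deacetylase reported to act on AIRE, rose alike, by 0.88 ± 0.22 and 0.87 ± 0.18. The cortical epithelial list had 3 of 12 higher in each mutant, among them Tbata at 1.18 ± 0.14 and 1.09 ± 0.12. Immature mTEC genes had 3 of 12 lower in -/C313Y and none called in +/C313Y, with Igfbp5 at -1.66 ± 0.30 and -0.18 ± 0.24 and a difference of -1.48 ± 0.38 that did not pass (edgeR, adjusted p = 0.0889).

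Of 21 interferon-stimulated genes, 13 were lower and 2 higher in -/C313Y and 14 lower and 1 higher in +/C313Y. Their medians were -1.20 and -0.77, and 7 were within 2-fold, against 47.7% of all tested genes. Oas2 was at 7.47, 6.25 and 4.74 CPM in -/C313Y against 56.4, 35.9 and 38.7, and at 2.94, 2.29, 3.6 and 7.14 in +/C313Y against 19.4, 20.6, 18.2, 61.3 and 38.8. Every mutant library was below every wild type. Keratinocyte-like genes had 2 higher and 2 lower of 17 in -/C313Y and 3 higher and 1 lower in +/C313Y. Tuft cell genes had 2 and 1 of 19 higher, and microfold and ciliated genes 3 of 13 lower in each with 1 higher in +/C313Y. Proliferation genes had 1 higher and 1 lower of 14 in -/C313Y and none in +/C313Y. Dissociation and stress genes had 2 and 1 of 20 higher, with Klf6 at 1.11 ± 0.20 and 0.21 ± 0.16. Beside these counts, 9.83% of all tested genes were higher and 12.9% lower in -/C313Y, and 6.36% and 11.0% in +/C313Y. The counts of the tuft and stress lists lie near these shares.

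Sets taken from B6 Aire-/- libraries, which enter no effect here, were read in the same way. Over all tested genes, 12.9% were lower and 9.83% higher in -/C313Y, and 11.0% lower and 6.36% higher in +/C313Y. For the difference, 0.195% were called lower and 0.231% higher, with a median of -0.01. Of 1253 tested genes at least 2-fold lower in B6 Aire-/-, 890 were lower and 7 higher in -/C313Y, and 828 lower and 15 higher in +/C313Y, with medians of -2.03 and -1.67. Their difference had a median of -0.38, with 17 genes called lower and 2 higher. Of 553 genes at least 2-fold higher in B6 Aire-/-, 316 were higher and 6 lower in -/C313Y, and 209 higher and 17 lower in +/C313Y, with medians of 0.92 and 0.47. The difference of these had a median of 0.46, with 18 called higher and 1 lower, and its median without the wild types titled C313T was 0.27.

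As a share of all counts, the lowered set took 1.31% to 1.403% in -/C313Y against 3.52% to 3.597% in its wild types. It took 1.60% to 1.69% in +/C313Y and 3.08% to 3.77% in its wild types. The mutant ranges did not overlap, and both lay below all wild types. The raised set took 4.56% to 4.85% in -/C313Y against 2.45% to 2.49%, and 3.17% to 4.34% in +/C313Y against 2.19% to 2.96%, with +/C313Y 50 the highest of its group. NOD Aire-/- took 1.53% to 1.58% and 4.997% to 5.34%, and Aire+/- 3.44% to 3.56% and 3.37% to 3.45%.

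**Figure D5:**
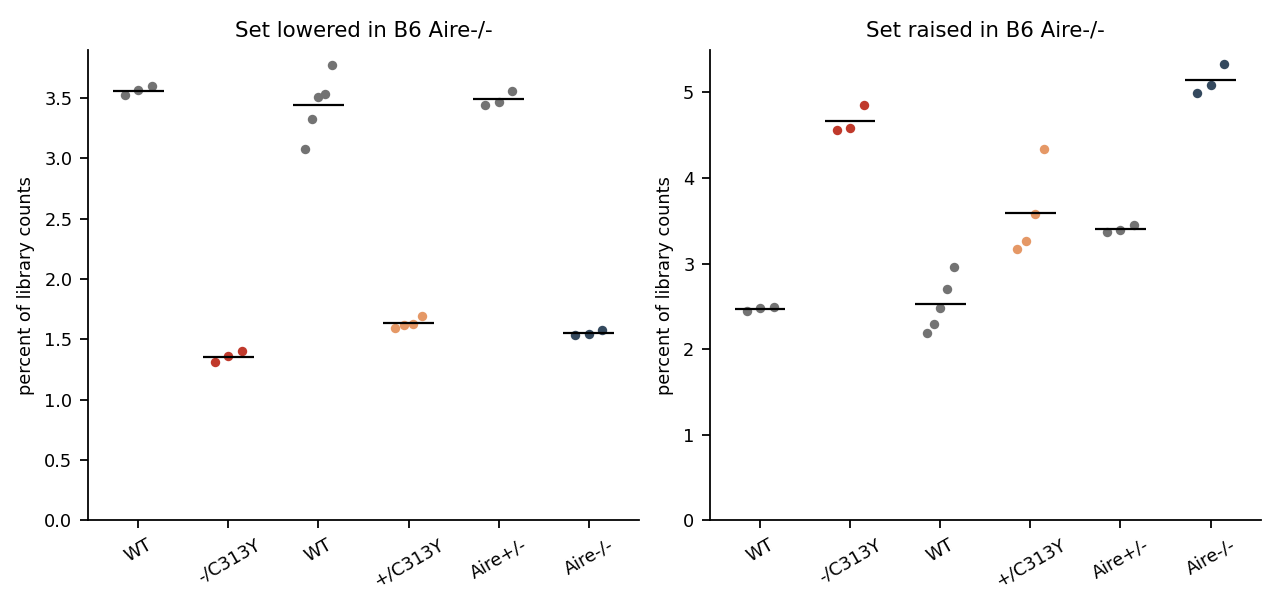
Percent of library counts (vertical axes) in genes at least 2-fold lower (left) or higher (right) in B6 Aire-/- than in wild type; points are libraries and bars group means, and each WT stands left of the mutant group of its own title form. The lowered set is lowest in -/C313Y, and the raised set is higher in -/C313Y than in +/C313Y.

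The breadth of expression fell in both mutants. Thinned to 1623500 counts, -/C313Y libraries had 14774 ± 28.9 genes with a count (SD, n = 3) and their wild types 15947 ± 17.2 (n = 3), so that the number fell by 1172 (two-sided exact permutation p = 0.1, the smallest that 3 against 3 allows). +/C313Y libraries had 15121 ± 167 (n = 4) and their wild types 15981 ± 218 (n = 5), so that the number fell by 860.5 (two-sided exact permutation p = 0.00794). The difference between both losses was not tested.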

How the data were processed

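Tools named in the submitters' processing notes, with no role given, include HTSeq, DESeq2 and cutadapt, and also STAR 2.4.2a and bcl2fastq, with mm10 as the build. Settings, annotation, use of strand and collapse of molecular identifiers are not given in the sources used here. The authors deposited raw counts per gene and library, and the tests used these alone. The table lists only genes whose highest count is at least 6. It also holds the authors' normalized signal and their log2 values after ComBat, read here only for a check. In 2525 genes with a normalized level of at least 200, the shift from the authors' normalized signal to their deposited ComBat values correlated at 0.89 to 0.98 among the 6 libraries of the -/C313Y title form and at -0.94 to -0.69 between these and the rest. The shift thus differed by title form, and each effect was taken within its form.

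All 6 groups (21 libraries) entered a single fit with edgeR 4.0.16 (R 4.3.3, TMM, filterByExpr, robust quasi-likelihood, Benjamini-Hochberg over 13827 genes). Levels are CPM on TMM-scaled library sizes. The difference of effects is (-/C313Y minus its wild types) minus (+/C313Y minus its wild types). Likeness was tested by a pair of one-sided tests against a margin of 1 on the log2 scale. The code was tested on simulated counts. B6 sets came from an edgeR fit of their own table, with 1 library that the labels put in no group left out.

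Members and lists were chosen with earlier results of these data known. Genes are named by rule: Aire, the 12 largest called differences each way at 5 CPM or more, the 10 alike genes each way with the largest effects, the 6 largest called effects each way and up to 4 members of each list. Of these and of the called genes, 3 are not reported here. Alternatives were a narrower margin, RLE factors, only the 4 groups in the fit, DESeq2 1.42.0, no filter, pooled wild types, a replicate block, a sex term and libraries left out. Leaving out wild types 78 and 80 was added after seeing the data. Intervals and floors of counts cover counting error only.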

Additional observations from a re-analysis of the deposited data

Results flagged for a closer look

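The level of Arc in wild type 80 of the +/C313Y form, 44.0 CPM, lay below the other 4 of its group, at 66.3 to 73.7 CPM, by more than the critical value for the gap of an extreme sample. Of 60 groups of values tested in this way it was the 1 that passed, and chance passes about 1 in 20. The edgeR difference of effects passed, and the effects were called in opposite directions, for 5 genes. The log2 difference was 1.11 for Chga, 1.95 for Hoxd4 and 1.31 for Lypd8, higher in -/C313Y and lower in +/C313Y. It was -3.66 for Ctxn3 and -2.23 for Fmo1, lower in -/C313Y and higher in +/C313Y. All 5 kept their sign under every setting, and Ctxn3 passed in each.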

How the results depend on the processing

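The number of genes called for the difference, 59, was 22 with only the 4 groups in the fit, 198 without wild types titled C313T, 174 without wild types 78 and 80, 191 with DESeq2 and 1284 with pooled wild types, where the title form no longer cancels; of the 59, 49 were called with pooled wild types. With RLE factors, no filter, a sex term and the replicate block it was 57, 57, 71 and 53. Same-numbered libraries of the -/C313Y form deviated together at r = 0.064, -0.038 and 0.158, and differently numbered ones at -0.142 to 0.083. With 3 libraries in each group these values cannot show whether libraries of the same number were paired. With a margin of 1.5-fold 0 genes passed for likeness, against 6594 with 2-fold. The cause of these shifts was not tested.

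With 1 library left out the counts ran from 21 to 143 for the difference, 2429 to 3298 for -/C313Y, 1971 to 2775 for +/C313Y, 1830 to 2011 for Aire-/- and 5279 to 6648 within 2-fold. Genes detected ran from -1189 to -1161 and from -939 to -805. The median difference ran from -0.41 to -0.27 for the B6 lowered set and 0.37 to 0.58 for the raised set, from -0.24 to -0.21 and 0.23 to 0.31 with no fold limit, and from -0.63 to -0.37 and 0.64 to 0.96 for members also called on NOD. For lists it ran from -0.66 to -0.22 (antigens), -1.28 to -0.49 (pancreas), -0.23 to 0.14 (liver), 0.12 to 0.34 (gut), -0.33 to 0.0093 (neural), -1.58 to -1.03 (eye), -1.39 to -0.50 (milk and salivary), -0.41 to 0.045 (muscle and heart), 0.35 to 0.48 (mature mTEC), 0.040 to 0.22 (NF-kB), -0.13 to 0.053 (AIRE partners), -0.49 to -0.30 (immature mTEC), -0.53 to -0.033 (keratinocyte-like), -0.50 to 0.17 (tuft), -0.54 to -0.054 (microfold and ciliated), -0.13 to 0.11 (cortical), -0.14 to 0.10 (interferon), -0.36 to -0.08 (proliferation) and 0.14 to 0.39 (stress).

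Without wild types titled C313T the median difference was 0.27 for the raised set, -0.90 for antigens, -1.39 for pancreas, -0.55 for neural, -1.82 for eye, -1.36 for milk and salivary, -0.93 for muscle and heart and -0.10 for AIRE partners. With pooled wild types it was 0.078 for antigens, -0.51 for pancreas, 0.17 for liver, 0.54 for gut, -0.0049 for NF-kB, -0.18 for AIRE partners, 0.57 for tuft, -0.17 for microfold and ciliated, 0.087 for interferon, -0.49 for proliferation and 0.51 for stress. Without wild types 78 and 80 it was -0.65 for pancreas, 0.14 for liver, -0.63 for milk and salivary, -0.095 for AIRE partners and -0.25 for interferon, and with a sex term -0.11 for AIRE partners.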
